A study of Mus musculus with 24 samples.

Results

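Small nucleolar RNA (snoRNA) host genes are transcription units whose introns hold snoRNAs, and 9 noncoding members of this class were followed through toxin treatment of mouse intestinal tumours. They were Snhg1, Snhg3, Snhg4, Snhg5, Snhg8, Snhg11, Snhg12, Snhg15 and Gas5, taken by gene name and Entrez identifier from 36528 gene rows measured in each library. They were chosen by name with their measured differences between diphtheria toxin (DT) and saline at 24, 48 and 96 h already known, so those differences are given as description, without a test. All 9 passed the filter on low counts that left 17468 genes for testing.

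RNA was sequenced from cells of small-intestine tumours whose genotype is recorded as AKVPL. The labels do not spell these letters out. The alleles of this model are known to include a Cre recombinase driven by the Villin promoter of intestinal epithelium and an Lgr5 allele that carries the DT receptor. All 6 groups share the genotype, the tissue and a bulk sort of cells labelled EpCAM, and differ in agent (saline or DT) and in time (24, 48 or 96 h), with 4 libraries each. DT blocks protein synthesis in cells that carry its receptor, and the question put by the design is what follows the removal of cells expressing Lgr5, an intestinal stem cell receptor. Since no label ties the 4 libraries of a group to separate animals, the p-values below refer to variation among these samples, part or all of which may be technical.

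Most mammalian snoRNAs are cut out of spliced introns and then guide the chemical modification of ribosomal RNA, 2′-O-methylation in the C/D box class and pseudouridylation in the H/ACA box class. The exons of a noncoding host are joined into an RNA with short reading frames, and for several hosts, Gas5 and Snhg1 among them, this RNA is known to be destroyed by nonsense-mediated decay (NMD) as it is translated. Many hosts start transcription in a run of pyrimidines, like the 5′ terminal oligopyrimidine (TOP) mRNAs of ribosomal proteins and elongation factors.

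Start sites are shown first, because the annotated start is a feature that the choice of genes did not use. Each line gives 40 bases before and 30 bases from the annotated start, read from RefSeq promoters on GRCm38.p6, for 8 of the 9 genes. Gas5 has a pair of annotated starts. Capitals mark a run of at least 5 pyrimidines whose first letter lies within 10 bases of the start, a TATAAA whose first letter lies 20 to 40 bases before it, and the E-box letters CACGTG.
Snhg1 (chr19:8723447-8723516, plus strand): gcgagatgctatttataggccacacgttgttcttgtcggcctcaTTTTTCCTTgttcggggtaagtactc
Snhg3 (chr4:132353657-132353726, minus strand): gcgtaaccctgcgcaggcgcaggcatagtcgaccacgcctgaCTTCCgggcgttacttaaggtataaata
Snhg5 (chr9:88522868-88522937, minus strand): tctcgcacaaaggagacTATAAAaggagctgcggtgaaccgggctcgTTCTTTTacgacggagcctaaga
Snhg8 (chr3:123508307-123508376, minus strand): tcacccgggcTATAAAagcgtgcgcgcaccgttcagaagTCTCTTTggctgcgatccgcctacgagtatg
Snhg11 (chr2:158375673-158375742, plus strand): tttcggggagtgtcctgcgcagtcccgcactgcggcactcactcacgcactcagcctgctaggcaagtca
Snhg12 (chr4:132308638-132308707, plus strand): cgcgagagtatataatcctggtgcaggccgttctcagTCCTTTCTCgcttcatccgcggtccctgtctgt
Snhg15 (chr11:6528731-6528800, minus strand): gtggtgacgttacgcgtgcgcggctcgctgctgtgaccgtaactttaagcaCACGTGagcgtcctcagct
Gas5 (chr1:161034561-161034630, plus strand): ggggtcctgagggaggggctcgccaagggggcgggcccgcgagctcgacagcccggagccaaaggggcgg
Gas5 downstream start (chr1:161035126-161035195, plus strand): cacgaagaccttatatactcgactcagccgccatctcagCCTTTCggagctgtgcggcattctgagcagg

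A pyrimidine run near the start was found in 6 of the 8 genes, Snhg1, Snhg3, Snhg5, Snhg8, Snhg12 and Gas5 (at its downstream start), against 38% of all 32851 promoters of the table. Snhg11 and Snhg15 had none in this window. TATAAA lay 20 to 40 bases before the start of Snhg5 and Snhg8, and in 1.99% of all promoters. Anywhere in the 300-base promoter, on either strand, TATAAA was present in 4 of the 8 genes (Snhg1, Snhg3, Snhg5 and Snhg8) and in 13.6% of promoters. CACGTG, on either strand, was present in Snhg15 alone among the 8, and in 7.15% of promoters. These are matches of letters only, and a motif that overlaps another was counted for both.

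By RefSeq coordinates on GRCm38.p6 the genes are short, from 785 bases for Snhg8 (chr3:123507552-123508336) to 10762 bases for Snhg11 (chr2:158375713-158386474). Snhg1 (chr19:8723487-8726326) and Gas5 (chr1:161034601-161038539) each contain 8 annotated snoRNA genes, and Snhg12 (chr4:132308678-132311024) contains 4. Snhg3 (chr4:132351933-132353686), Snhg5 (chr9:88521052-88522897) and Snhg11 contain 2 each, and Snhg4 (chr18:35553410-35558316), Snhg8 and Snhg15 (chr11:6525591-6528760) 1 each. Snhg12 and Snhg3 lie 40.9 kb apart on chromosome 4, with coding genes between them. Snhg11 lies 14.2 kb from Snhg17, a noncoding host outside the 9. All 9 are annotated as long noncoding RNA genes by RefSeq, whereas GENCODE M21 gives Snhg11 as protein coding. The Gas5 interval overlaps coding gene annotation, Zbtb37 included, and since use of strand in counting is not stated, reads cannot be told apart where the genes overlap.

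Among spliced GENCODE M21 transcripts of 8 of the genes, 29 of 36 (80.6%) had an exon junction more than 50 bases past the stop codon of the frame opened by the first ATG, a layout known to mark mRNAs for NMD. That first frame had a median length of 23 codons. The same layout was found in 9914 of 13639 (72.7%) noncoding transcripts of more than 1 exon, with a median frame of 17 codons.

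Libraries held 10.9 to 27.7 units of 1e6 counts. Values are given below as CPM (counts per 1e6 counts of a library) after TMM scaling. Lgr5 was at 199.8 ± 16.9 CPM (SD, n = 4) in saline and 81.4 ± 3.72 CPM after DT at 24 h. Replicate 3 of DT at 48 h stood apart, with Lgr5 at 171 CPM against 95.4 to 117 in the other libraries of its group, so 48 h values are also given without it where they move. The 6 epithelial markers summed to 6520 to 8644 CPM over all libraries, and all 7 fibroblast markers were present too, at 2708 to 11297 CPM.

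In saline tumours at 24 h the hosts covered a wide range of levels. Levels of different genes were compared per gene length, as the deposited nRPKM, an RPKM adjusted by a size factor. Snhg1 was highest at 82.6 ± 6.52 (SD, n = 4), followed by Gas5 at 51.2 ± 4.93 and Snhg5 at 33.95 ± 1.92. Snhg12 (28.05 ± 2.71) and Snhg8 (26.5 ± 1.96) overlapped between libraries. Snhg3 (17.3 ± 2.51) and Snhg15 (10.7 ± 0.994) stood apart from their neighbours, and Snhg4 (5.75 ± 0.234) and Snhg11 (4.69 ± 1.196) overlapped at the bottom. After DT at 24 h Snhg15 had passed Snhg8 and Snhg3 with 38.7 ± 3.37 nRPKM and overlapped Snhg5 at 34.96 ± 1.78, and Snhg11 was last at 0.247 ± 0.143. In saline at 96 h Snhg5 (28.6 ± 2.52), Snhg8 (28.2 ± 2.63) and Snhg12 (27.7 ± 1.38) overlapped, and Snhg11 (6.26 ± 1.43) lay above Snhg4 (4.84 ± 0.396) with overlapping libraries. After DT at 96 h Snhg12 (30.1 ± 0.762) lay above Snhg5 (29.2 ± 1.03) with overlapping libraries, and Snhg11 was last at 0.633 ± 0.494.

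**Figure D1:**
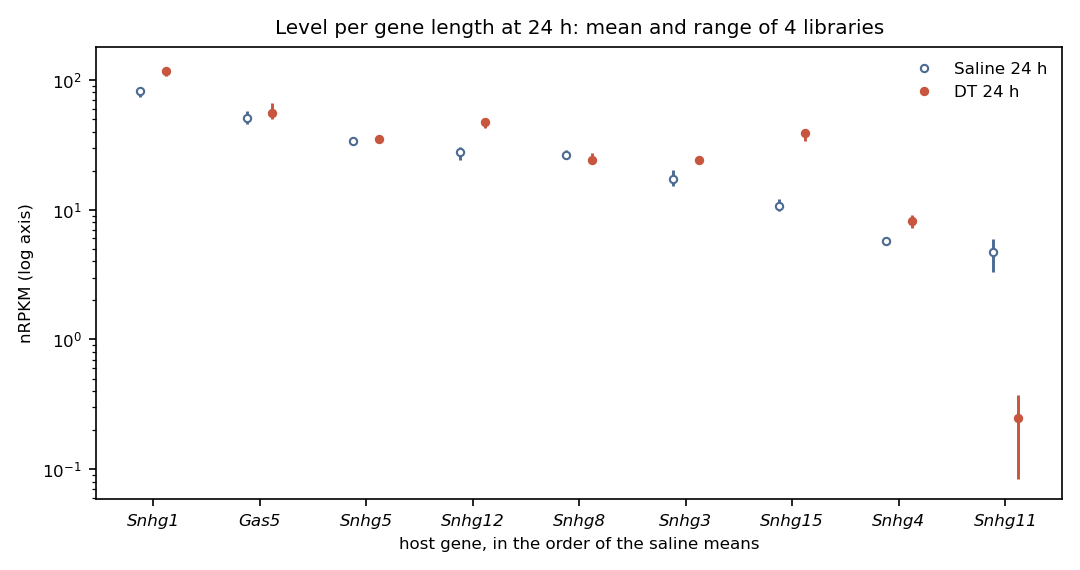
Level per gene length (nRPKM, log axis) of the 9 host genes in saline (open) and DT (filled) at 24 h, ordered by the saline mean; points are means and vertical lines the range of 4 libraries. Snhg15 moved from 10.7 to 38.7 and Snhg11 from 4.69 to 0.247.

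Snhg15, host of 1 annotated H/ACA snoRNA gene, had the largest difference above saline among the 9. At 24 h its saline libraries held 7.22, 6.45, 8.11 and 6.86 CPM and its DT libraries 26.1, 27.3, 26.8 and 22.6 CPM. At 48 h they held 6.71, 6.56, 8.36 and 6.84 CPM in saline and 17.4, 13.4, 17.2 and 18.8 CPM after DT. Every DT library lay above every saline library at both times, by 3.59-fold at 24 h (log2 fold change 1.84 ± 0.13, SE) and 2.37-fold at 48 h (1.24 ± 0.13). At 96 h the groups met, with saline at 5.41, 6.67, 7.65 and 4.96 CPM and DT at 8.16, 8.64, 8.903 and 6.93 CPM, a log2 fold change of 0.41 ± 0.13. From 24 to 96 h the difference decreased by 1.43 ± 0.18 on the log2 scale.

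Snhg12, host of H/ACA and C/D snoRNAs, had the next largest difference. Its saline libraries at 24 h held 19.3, 16.3, 20.1 and 20.7 CPM and its DT libraries 34.9, 28.6, 31.8 and 34.3 CPM. All 4 DT libraries were higher, by 1.69-fold (log2 fold change 0.76 ± 0.08). The 48 h libraries held 19.998, 18.02, 19.7 and 18.3 CPM in saline and 27.3, 22.1, 23.8 and 24.3 CPM after DT, again without overlap (0.36 ± 0.08). At 96 h DT libraries at 20.8, 19.99, 20.97 and 20.03 CPM remained just above saline libraries at 19.5, 18.8, 19.9 and 17.7 CPM, with a log2 fold change of only 0.11 ± 0.08. From 24 to 96 h the difference decreased by 0.65 ± 0.11 (log2).

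Snhg1, host of a cluster of C/D box snoRNAs, followed the same course at a higher level. At 24 h it was at 44.6, 38.99, 47.8 and 45.6 CPM in saline and 67.1, 56.7, 65.5 and 61.7 CPM after DT, with all DT libraries higher (log2 fold change 0.50 ± 0.07). At 48 h it was at 45.3, 43.2, 44.8 and 46.5 CPM and 59.8, 54.8, 51.7 and 56.7 CPM, still without overlap (0.31 ± 0.07). By 96 h saline at 44.8, 45.3, 46.95 and 41.05 CPM and DT at 45.9, 51.4, 50.6 and 42.5 CPM overlapped (0.10 ± 0.07).

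Snhg3, host of the H/ACA snoRNAs Snora73a and Snora73b, and Snhg4, host of Snora74a, separated the groups at 24 h but not at 48 h. Snhg3 held 7.43, 7.42, 9.95 and 9.25 CPM in saline and 12.8, 11.8, 11.7 and 11.001 CPM after DT at 24 h, a log2 fold change of 0.47 ± 0.12. Snhg4 held 7.495, 7.57, 7.05 and 7.63 CPM and 9.43, 9.87, 11.3 and 11.8 CPM (0.52 ± 0.11). The groups of both genes were apart, and Snhg4 in saline varied little. At 48 h Snhg3 held 7.25, 8.53, 10.5 and 8.51 CPM in saline and 11.1, 10.7, 9.26 and 8.74 CPM after DT (0.19 ± 0.12), and Snhg4 7.58, 5.301, 7.69 and 6.59 CPM and 8.11, 7.79, 6.77 and 8.03 CPM (0.18 ± 0.11). For Snhg4 only replicate 3 of DT, at 6.77 CPM, lay within the saline range, and the log2 fold change was 0.25 without it. At 96 h Snhg3 overlapped between groups (0.11 ± 0.12). Snhg4 did not, with 6.88, 6.52, 5.803 and 5.95 CPM in saline and 7.58, 7.95, 7.02 and 7.19 CPM after DT (0.24 ± 0.11).

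**Figure D2:**
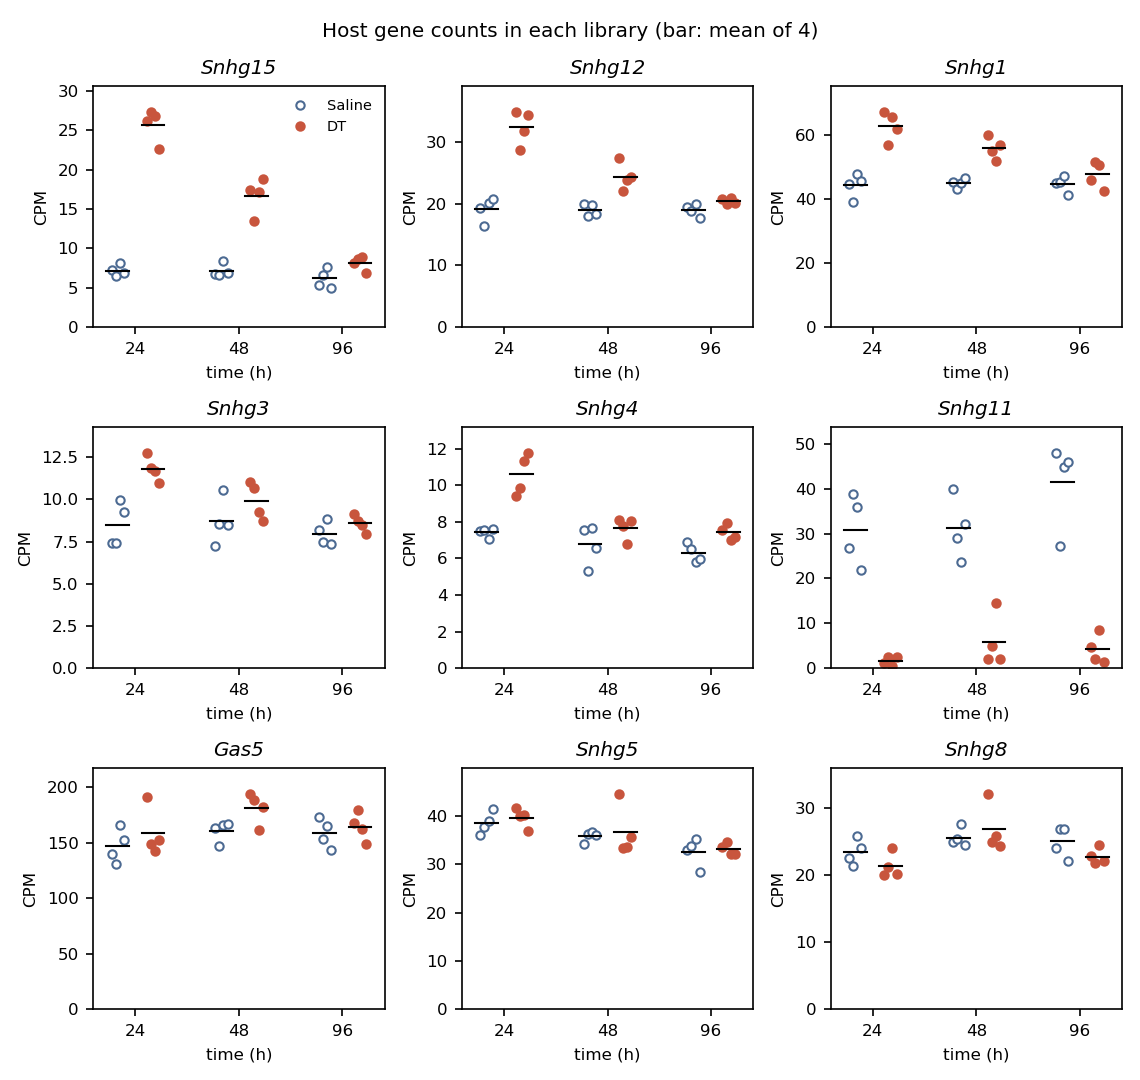
CPM (linear axis from 0) of each host gene in every library against time in hours, saline open and DT filled, with the mean of 4 libraries as a bar. Snhg12 separates the groups at 24, 48 and 96 h, Snhg15 and Snhg1 at 24 and 48 h, Snhg4 at 24 and 96 h, and Snhg3 at 24 h. Snhg11 lies lower after DT at each time, and Gas5, Snhg5 and Snhg8 overlap throughout.

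Gas5, a growth-arrest transcript and host of C/D box snoRNAs, did not separate the groups. At 24 h it was at 139, 131, 166 and 152 CPM in saline and 191, 148, 142 and 152 CPM after DT, a log2 fold change of 0.11 ± 0.09 that was -0.01 without replicate 1 of DT. At 48 h the values were 163, 147, 166 and 167 CPM and 194, 189, 161 and 182 CPM (0.18 ± 0.09). Only replicate 3 of DT, at 161 CPM, lay within the saline range there, and without it the log2 fold change was 0.24. At 96 h the log2 fold change was 0.05 ± 0.09. Zbtb37, a zinc finger gene that overlaps it, fell by 0.69 ± 0.21 (log2) at 24 h by edgeR's quasi-likelihood test (adjusted p = 0.0128).

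Snhg5, host of C/D box snoRNAs, and Snhg8, host of Snora24, also overlapped between DT and saline at all 3 times. Snhg5 at 24 h was at 36.2, 37.7, 39.01 and 41.6 CPM in saline and 41.6, 40.02, 40.2 and 36.9 CPM after DT, and its log2 fold changes at 24, 48 and 96 h were 0.04 ± 0.08, 0.04 ± 0.08 and 0.02 ± 0.08. Snhg8 was at 22.6, 21.4, 25.7 and 24.1 CPM and 20.1, 21.2, 23.95 and 20.2 CPM at 24 h, and its log2 fold changes were -0.13 ± 0.09, 0.07 ± 0.09 and -0.14 ± 0.09. None of these exceeded 2 times its SE. At 48 h replicate 1 of DT was the highest of its group for both, at 44.6 CPM for Snhg5 and 32.1 CPM for Snhg8.

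Snhg11, a host transcript best known from the brain, went the other way. At 24 h its saline libraries held 26.8, 38.8, 36.05 and 21.97 CPM and its DT libraries 1.11, 2.39, 0.554 and 2.44 CPM, or 285 to 517 counts against 13 to 68. At 48 h they held 39.96, 29.1, 23.7 and 32.2 CPM and 1.92, 4.83, 14.6 and 2.03 CPM, and at 96 h 48.04, 27.2, 44.8 and 45.95 CPM and 4.75, 2.11, 8.48 and 1.28 CPM. No DT library reached the lowest saline library of its time. The gene was 18.6-fold lower at 24 h (log2 fold change -4.21 ± 0.59), 5.58-fold lower at 48 h (-2.48 ± 0.52) and 10.5-fold lower at 96 h (-3.39 ± 0.54). The 48 h value rests in part on replicate 3, whose Snhg11 was 14.6 CPM, and it became -3.52 when replicate 3 was left out. In bulk RNA, fewer cells of a type and less RNA per cell cannot be told apart.

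Markers of other cell types were read beside Snhg11. The 5 goblet cell markers summed to 376 to 498 CPM in saline and 147 to 221 CPM after DT at 24 h. Of these markers 3 were called lower there (60%, against 18.9% of all genes) and 0 higher, with a list median of -1.92. Their sums were apart at 48 h too (335 to 390 CPM in saline, 190 to 235 CPM after DT) and overlapped at 96 h (285 to 449 and 199 to 320 CPM). The part of the goblet markers in the Snhg11 difference was not tested. The 7 neuron and glia markers summed to 22.4 to 28.2 CPM in saline and 17.2 to 24.6 CPM after DT at 24 h. Of the 5 tested, 1 was called lower (20%, against 18.9% of all genes). The lowest log2 fold change of the list was -0.79, and its part was not tested. The 5 Paneth cell markers summed to 457 to 472 CPM in saline and 299 to 439 CPM after DT at 24 h, also without overlap. Ang4, Itln1 and Defa24 were called lower there (60% of the list, against 18.9% of all genes) and 0 higher. The list median was -1.19, with a range of -3.15 to 0.07, and the part of this list too was not tested. At 48 and 96 h the Paneth sums overlapped between groups, at 332 to 410 and 309 to 413 CPM in saline and 301 to 599.6 and 390 to 520.4 CPM after DT. The sums of the 6 mast cell markers overlapped at 24 h, at 55.3 to 85.8 CPM and 51.5 to 115 CPM, but single markers differed. The mast cell tryptase gene Tpsb2 fell from 21.2 to 2.19 CPM at 24 h, by 3.18 ± 0.53 on the log2 scale (edgeR's adjusted p = 7.64e-05), and was called lower at 48 and 96 h too. Kit, a growth factor receptor gene of mast cells and other cells, rose by 0.77 ± 0.30 at 24 h (adjusted p = 0.0475), and the other 4 mast cell markers were not called. That is 16.7% of the mast list called in each direction at 24 h, near the 18.9% lower and 19.9% higher of all genes. The 6 enteroendocrine markers overlapped, at 180 to 376 CPM and 209 to 614 CPM. Fibroblast markers were at 3359 to 3943 CPM in saline and 2864 to 6575 CPM after DT.

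By edgeR's quasi-likelihood test with an adjusted p under 0.05, 5 of the 9 genes would be called higher after DT at 24 h, where 19.9% of all genes tested were, and 1 lower, where 18.9% were. At 48 h the counts were 3 higher (4.83% of all genes) and 1 lower (6.5%), and at 96 h 0 higher (1.01%) and 1 lower (3.02%). Groups did not overlap upwards for 5, 3 and 2 of the genes at 24, 48 and 96 h, against 18.1%, 7.16% and 4.91% of all genes, and downwards for 1 at each time, against 16.2%, 8.65% and 6.7%. For the change of the difference from 24 to 96 h, 3 (Snhg1, Snhg12 and Snhg15) would be called lower, where 7.82% of all genes were. Since the genes were chosen with these contrasts known, nothing is read from these counts. Over all genes at 96 h, 176 were called higher and 528 lower, and with upper quartile scaling 250 and 458.

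**Figure D3:**
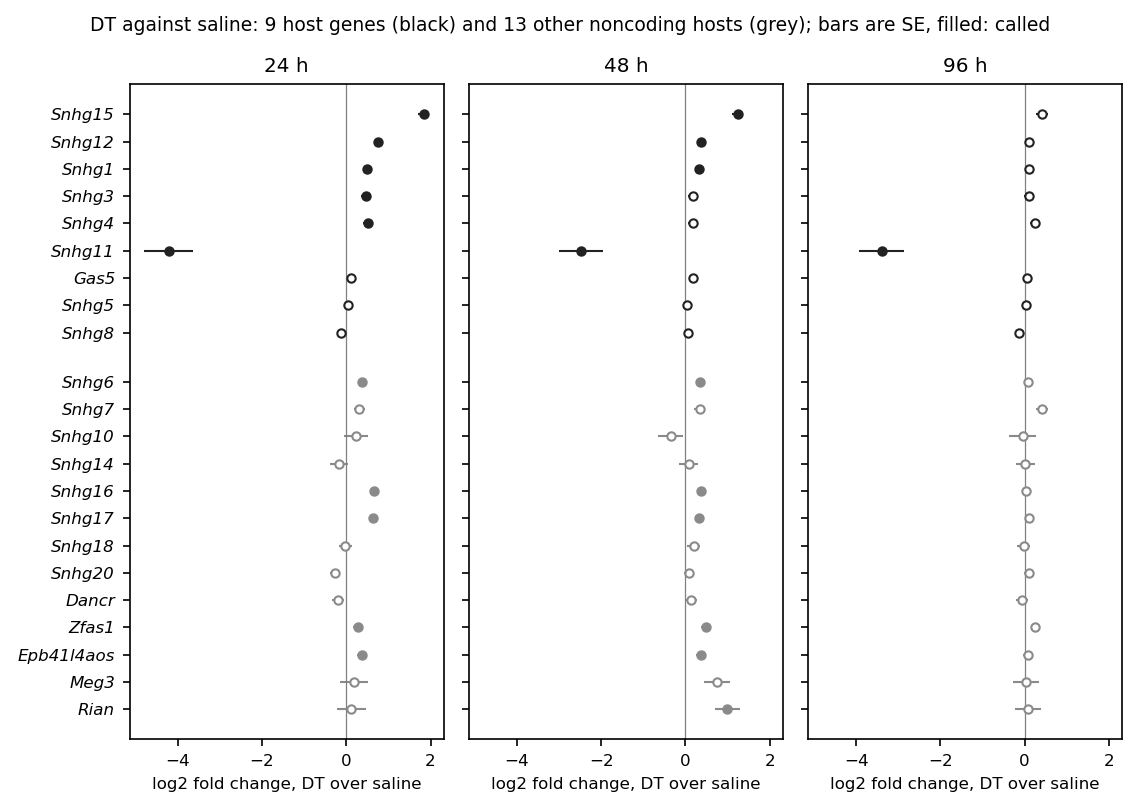
Log2 fold change of DT over saline (x axis) with its SE at 24, 48 and 96 h for the 9 host genes (black) and 13 other noncoding hosts (grey); filled points pass an adjusted p under 0.05 in edgeR. Snhg15 falls from 1.84 to 0.41 between 24 and 96 h, and Snhg16 and Snhg17 from 0.66 and 0.63 to 0.04 and 0.10.

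The saline groups gave a comparison that the choice of genes did not use, although it shares their saline libraries. None of the 9 genes was called between saline at 48 h and at 24 h, where 0.355% of all genes were called and the smallest unadjusted p was 0.173 for Snhg8 and Gas5. None was called between 96 h and 24 h either, where 3.22% of all genes were called. Snhg5 came nearest, at 38.6 ± 2.28 CPM (SD, n = 4) at 24 h and 32.6 ± 2.91 CPM at 96 h, a log2 fold change of -0.24 ± 0.08 with edgeR's adjusted p = 0.0947. Snhg4 had the same size of change, -0.24 ± 0.12 (edgeR's adjusted p = 0.272). These 2 genes had an unadjusted p under 0.05, and their 96 h libraries all lay below those of 24 h, as did 6.51% of all genes. DESeq2 and limma voom called 0 of the 9 in both comparisons. Snhg1 differed by 0.01 ± 0.07 (log2) and Snhg12 by -0.01 ± 0.08 between 96 and 24 h.

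Within groups most pairs of hosts varied together, apart from pairs with Snhg11 or Snhg4. Pearson's r was computed between deviations of log2 CPM from the 6 group means over 24 libraries, which uses no difference between groups. Of the 28 pairs without Snhg11, 26 were positive, with a median of 0.49 and a range of -0.03 to 0.73. The highest were Snhg1 with Gas5 (0.73), Snhg1 with Snhg12 (0.69) and Snhg5 with Snhg8 (0.69). Both negative pairs held Snhg4, whose correlations with the other 7 ran from -0.03 to 0.26. The 8 pairs with Snhg11 were all negative, from -0.47 to -0.06. The genes of a pair share each library's depth, scaling and RNA, and no r between pairs of other genes was set beside them. These values are therefore a description, and do not show a trait particular to hosts. Single libraries carried several hosts at once. In DT at 48 h replicate 1 was highest for 7 of the 9 genes, and in saline at 96 h replicate 3 was highest for 6 and replicate 4 lowest for 7.

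**Figure D4:**
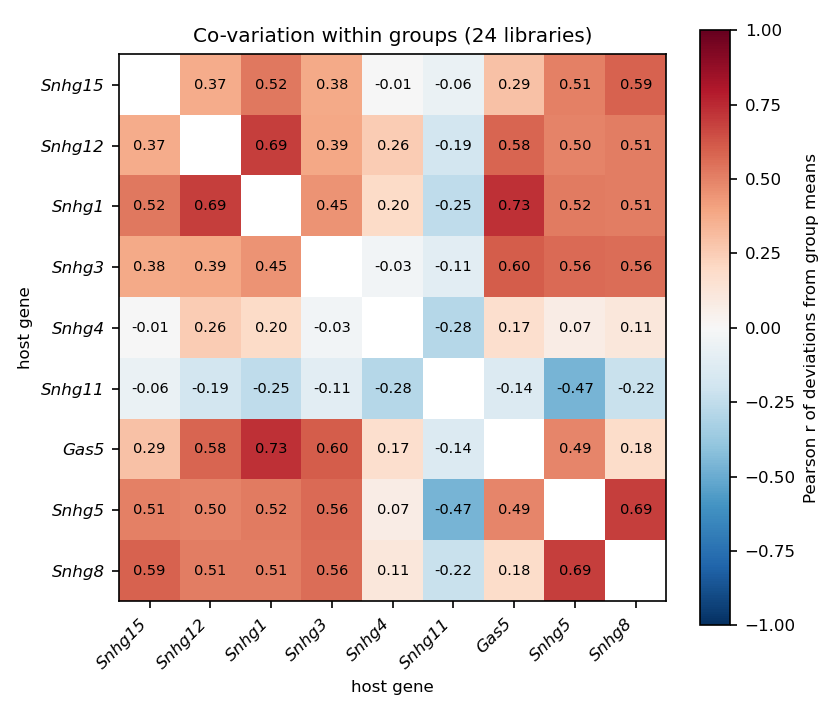
Pearson r between host genes, computed from deviations of log2 CPM from the 6 group means over 24 libraries; both axes list the 9 genes and the colour runs from -1 (blue) to 1 (red). Snhg1 and Gas5 reach 0.73, the Snhg11 row is negative throughout, and the Snhg4 row lies at 0.26 or less.

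Among 13577 named genes, those with the most similar within-group pattern were mostly not hosts. For Snhg1 they were Atp13a1, an endoplasmic reticulum ATPase (r = 0.77), Wdr73 (0.74) and Gas5 itself. For Snhg3 they were Tcf25 (0.78), Eif4a1, an initiation factor gene that also hosts snoRNAs (0.78), and Sharpin (0.75). Snhg8 was nearest to the mitochondrial ribosomal protein gene Mrpl33 (0.88), Snhg12 to the lipid kinase gene Pi4k2a (0.88), Gas5 to the histone methyltransferase gene Kmt5c (0.88), Snhg5 to Tmem256 (0.81) and Snhg4 to Ppp1r21 (0.73). Snhg15 was nearest to Lor, which encodes the cornified envelope protein loricrin (0.79), itself at 17.5 CPM in saline and 43.7 CPM after DT at 24 h.

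Snhg11 was nearest within groups to Crebl2 (0.87), Mat1a, a methionine adenosyltransferase gene (0.87), and Phf24 (0.87). Over all 24 libraries, where group differences enter, its 5 nearest genes were Mat1a (0.98), the pancreatic lipase relative Pnliprp2 (0.97), Phf24 (0.97), the mast cell IgE receptor subunit gene Ms4a2 (0.97) and the proteoglycan gene Spock2 (0.97). At 24 h Pnliprp2 was at 734 CPM in saline and 9.91 CPM after DT, and Spock2 at 1145 and 58.7 CPM.

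Introns of the hosts gave a further readout, since 10 snoRNA genes inside 6 of the hosts have rows of their own. These libraries were made from polyA RNA, which leaves out most mature snoRNAs, so their reads may come from precursors or retained introns. One snoRNA of each class is shown from GENCODE M21. In Snord47, the C/D box snoRNA inside Gas5 (chr1:161038082-161038158, plus strand), capitals mark the box C letters TGATGA and the box D letters CTGA. In Snora73b, inside Snhg3 (chr4:132352322-132352526, minus strand), they mark the ACA 3 bases from the end.
Snord47: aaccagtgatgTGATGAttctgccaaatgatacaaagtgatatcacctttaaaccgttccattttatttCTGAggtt
Snora73b: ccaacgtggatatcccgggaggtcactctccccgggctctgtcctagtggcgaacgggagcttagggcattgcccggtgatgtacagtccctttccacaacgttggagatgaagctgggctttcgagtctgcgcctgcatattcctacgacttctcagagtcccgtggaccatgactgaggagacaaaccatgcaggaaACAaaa

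Counts at these rows were low, from 88 for Snora74a to 1327 for Snord22 over all 24 libraries. At 24 h Snord22, inside Snhg1, was at 2.65 ± 0.98 CPM (SD, n = 4) in saline and 3.07 ± 1.11 CPM after DT, a log2 fold change of 0.18 ± 0.25 (SE). Snora73b changed by 0.22 ± 0.19 and Snora73a by 0.14 ± 0.22, both inside Snhg3. The 4 rows inside Snhg12 ran from -0.06 ± 0.37 for Snora16a to 0.88 ± 0.38 for Snora44, Snord47 in Gas5 was at 0.40 ± 0.35, and Snora24 in Snhg8 at -0.38 ± 0.22. Of the 9 rows tested by edgeR, 0 were called in any DT or saline comparison, and the other tools were not read for these rows. Of all genes, 19.9%, 4.83% and 1.01% were called higher and 18.9%, 6.5% and 3.02% lower after DT at 24, 48 and 96 h. Between saline groups 0.355% and 3.22% were called at 48 and 96 h. With SEs of 0.19 to 0.38 at 24 h, changes of the hosts' size could be missed, so 0 calls do not show that the rows differed from their hosts. For DT, 1 had an unadjusted p under 0.05 at 24 h, 0 at 48 h and 0 at 96 h. Between saline groups 1 did at 48 h against 24 h and 4 at 96 h against 24 h. In the latter the log2 fold changes ran from 0.04 ± 0.37 for Snora16a to 0.92 ± 0.38 for Snora44.

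Neighbouring coding genes were read at 24 h, to set each host beside its surroundings. Of all genes, 19.9% were called higher and 18.9% lower at that time, and whether hosts and neighbours changed together was not tested. Wdr74, a ribosome maturation factor gene 9.5 kb from Snhg1, rose by 0.55 ± 0.08 on the log2 scale (edgeR's adjusted p = 6.98e-06), and Slc3a2, an amino acid transporter subunit gene 118 bases from Snhg1, by 0.25 ± 0.07 (adjusted p = 0.00754). Rcc1, a chromatin-bound exchange factor gene 6.2 kb from Snhg3, rose by 0.84 ± 0.09 (edgeR's adjusted p = 1.68e-07), while Phactr4, closer to Snhg3 at 2.2 kb on the other side, was at 0.14 ± 0.07 (adjusted p = 0.126). Trnau1ap, 739 bases from Snhg12, did not follow it (-0.08 ± 0.08), nor did Ccm2 near Snhg15 (-0.0011 ± 0.10). Matr3, 3.8 kb from Snhg4, was at -0.13 ± 0.07 (edgeR's adjusted p = 0.122), and Sil1 on the other side of Snhg4 at -0.17 ± 0.10 (adjusted p = 0.204). Prss12, near Snhg8, was at -0.02 ± 0.09, and Snhg8 itself overlapped between groups. Beside hosts that overlapped, Zfp949, 25.1 kb from Snhg5, rose by 0.40 ± 0.11 (edgeR's adjusted p = 0.00676). Syncrip on the other side of Snhg5 was at 0.18 ± 0.07 (adjusted p = 0.0532). Cenpl, 32.2 kb from Gas5, rose by 0.32 ± 0.11 (edgeR's adjusted p = 0.0199). Lbp, a lipopolysaccharide-binding protein gene 42.9 kb from Snhg11, fell by 0.93 ± 0.12 (edgeR's adjusted p = 3.38e-06), while Ralgapb on its other side was at 0.11 ± 0.08.

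Another 14 noncoding hosts were listed from general knowledge, and 13 passed the filter (Snhg9 did not). Like every other list here, this one was chosen with earlier results of these data known. Counts and p-values of the lists are therefore given as description. At 24 h 5 of the 13 rose (38.5%, against 19.9% of all genes) and 0 fell, with a median log2 fold change of 0.22 against -0.0036 over all genes. Snhg16 rose from 15.8 to 24.96 CPM (0.66 ± 0.08, edgeR's adjusted p = 4.11e-07) and Snhg17 from 33.6 to 52.3 CPM (0.63 ± 0.08, adjusted p = 1.6e-06). Snhg6 rose by 0.38 ± 0.09 (edgeR's adjusted p = 0.00247) and Epb41l4aos, an antisense host, by 0.38 ± 0.11 (adjusted p = 0.0114). Zfas1 was also called (0.27 ± 0.10, edgeR's adjusted p = 0.041). At 48 h 6 of the 13 rose (46.2% against 4.83%) and 0 fell, with a median of 0.34 against -0.0019 over all genes. Zfas1, antisense to the start of Znfx1, rose from 53.3 to 74.2 CPM (0.48 ± 0.10, edgeR's adjusted p = 0.00365), Snhg16 by 0.36 ± 0.08 (adjusted p = 0.00313), Snhg17 by 0.32 ± 0.08 (adjusted p = 0.00983) and Snhg6 by 0.34 ± 0.09 (adjusted p = 0.0225). The other 2 were Epb41l4aos (0.36 ± 0.11) and the imprinted Rian (0.997 ± 0.30). At 96 h 0 of the 13 were called by edgeR or limma voom, 1 by DESeq2 (Snhg7), and 2 had an unadjusted p under 0.05 in edgeR, with a median of 0.08 against -0.0059. The calls of Zfas1 and Epb41l4aos at 24 h were both lost without replicate 2 of saline or replicate 4 of DT, which left 3. The Zfas1 call was also lost without replicate 1 or 3 of saline or replicate 1 of DT and with the replicate block, and Snhg20 was called lower without replicate 1 of saline or replicate 1 of DT. At 48 h those of Snhg6, Epb41l4aos and Rian were lost without replicate 1 of saline or replicate 1 or 4 of DT, which also left 3. The Epb41l4aos call was also lost without replicate 2 or 3 of saline and the Rian call without replicate 2 or 4 of saline or replicate 3 of DT, and those of Snhg6 and Epb41l4aos when only the libraries compared were fitted. Fibroblast markers were at 3566 to 7234 CPM in saline and 6927 to 11297 CPM after DT at 48 h, and their part in these results was not tested.

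Genes for proteins that bind snoRNAs and assemble them into particles were mostly higher at 24 h. Of 18 listed, 16 rose (88.9%, against 19.9% of all genes) and 0 fell, with a median log2 fold change of 0.57. Nop56, a core C/D protein whose own gene hosts snoRNAs, rose from 85.0 to 186 CPM (1.13 ± 0.07, edgeR's adjusted p = 8.26e-11), and its partner Nop58 by 0.64 ± 0.05 (adjusted p = 7.06e-09). Nolc1, a nucleolar chaperone of these particles, rose by 0.73 ± 0.07 (edgeR's adjusted p = 5.83e-08), and Gar1, a core H/ACA protein, by 0.67 ± 0.07 (adjusted p = 2.89e-07). At 48 h 7 rose (38.9% against 4.83%), with a median of 0.19, falling to 4 without replicate 1 of saline or of DT. At 96 h 2 rose (11.1% against 1.01%), Nop58 and Nop56, with a median of 0.14. The count was 0 without replicate 3 or 4 of saline or replicate 2 of DT. It was 1 without replicate 1 of saline or replicate 1, 3 or 4 of DT.

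Of 34 coding hosts, 13 rose (38.2%, against 19.9% of all genes) and 1 fell (2.94% against 18.9%) at 24 h, with a median of 0.16. Besides Nop56, the gene of the small-subunit processome factor Wdr43 rose from 87.7 to 145 CPM (0.72 ± 0.05, edgeR's adjusted p = 1.55e-09), and those of the chaperones Hspa9 and Cct6a by 0.63 ± 0.06 (adjusted p = 1.21e-08) and 0.52 ± 0.06 (adjusted p = 2.47e-07). At 48 h 6 rose (17.6% against 4.83%) and 0 fell (median 0.18), and 15 rose without replicate 3 of DT. At 96 h 2 rose (5.88% against 1.01%, median 0.08), Wdr43 and Nop56, and leaving out any single library of that time left 1 or 0. Counts were of uniquely aligned reads, and ribosomal protein hosts differed widely in level in saline at 24 h. Rpl23a was at 1.86 and Rpsa at 3.72 CPM, beside 920 for Rps3 and 983 for Rpl4. Whether unique alignment lowered some of these rows was not tested.

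Genes of the decay route were read next. Of 16 NMD factors, 7 rose (43.75%, against 19.9% of all genes) and 1 fell (6.25% against 18.9%) at 24 h, with a median log2 fold change of 0.13. The exon junction helicase gene Eif4a3 rose by 0.43 ± 0.07 (edgeR's adjusted p = 3.51e-05), the central helicase gene Upf1 by 0.32 ± 0.05 (adjusted p = 4.56e-05) and the adaptor gene Smg5 by 0.23 ± 0.04 (adjusted p = 0.00022). Smg6, which encodes the decay endonuclease, fell by 0.32 ± 0.06 (edgeR's adjusted p = 8.6e-05). At 48 h only Smg6 of the 16 was called, at -0.18 ± 0.06 (edgeR's adjusted p = 0.0437). That is 6.25% called lower, against 6.5% of all genes. The Smg6 call was lost without any of the saline libraries or replicate 1 of DT, and without replicate 3 of DT 2 others rose instead. At 96 h edgeR, DESeq2 and limma voom called 0 of the 16, and 1 had an unadjusted p under 0.05 in edgeR.

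Of 7 mRNAs known as NMD targets, 2 rose and 2 fell at 24 h, 28.6% each, against 19.9% and 18.9% of all genes. Gadd45b rose by 0.73 ± 0.10 (edgeR's adjusted p = 5.36e-06) and Atf4 by 0.45 ± 0.08 (adjusted p = 6.82e-05). Atf3 fell by 0.87 ± 0.10 (edgeR's adjusted p = 2.48e-07) and Gadd45a by 0.31 ± 0.10 (adjusted p = 0.014). Gadd45b remained higher at 48 h, by 0.71 ± 0.10 (edgeR's adjusted p = 0.000155). Atf3 fell by 0.57 ± 0.09 at 48 h (edgeR's adjusted p = 0.00048) and fell by 0.57 ± 0.09 at 96 h (adjusted p = 0.000875), and the other members were not called at those times. Of 15 TOP mRNAs, 3 rose and 4 fell at 24 h, with a median of -0.02. The share that rose was near that of all genes (19.9%), and 26.7% fell where 18.9% of all genes did. Npm1, a nucleolar chaperone gene, rose by 0.45 ± 0.07 (edgeR's adjusted p = 2.02e-05) and the elongation factor gene Eef1g by 0.36 ± 0.09 (adjusted p = 0.00321), whereas Tpt1 fell by 0.48 ± 0.10 (adjusted p = 0.000307) and Nap1l1 by 0.21 ± 0.06 (adjusted p = 0.00756). At 48 h 1 rose, Npm1, and 1 fell, Nap1l1, 6.67% each, against 4.83% and 6.5% of all genes. There were 5 calls in place of 2 without replicate 3 of DT. There was 1 without replicate 1, 2 or 4 of saline or replicate 4 of DT. At 96 h 0 rose, where 1.01% of all genes did, and only Nap1l1 fell (6.67% against 3.02%), by 0.30 ± 0.06 (edgeR's adjusted p = 0.00436).

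**Figure D5:**
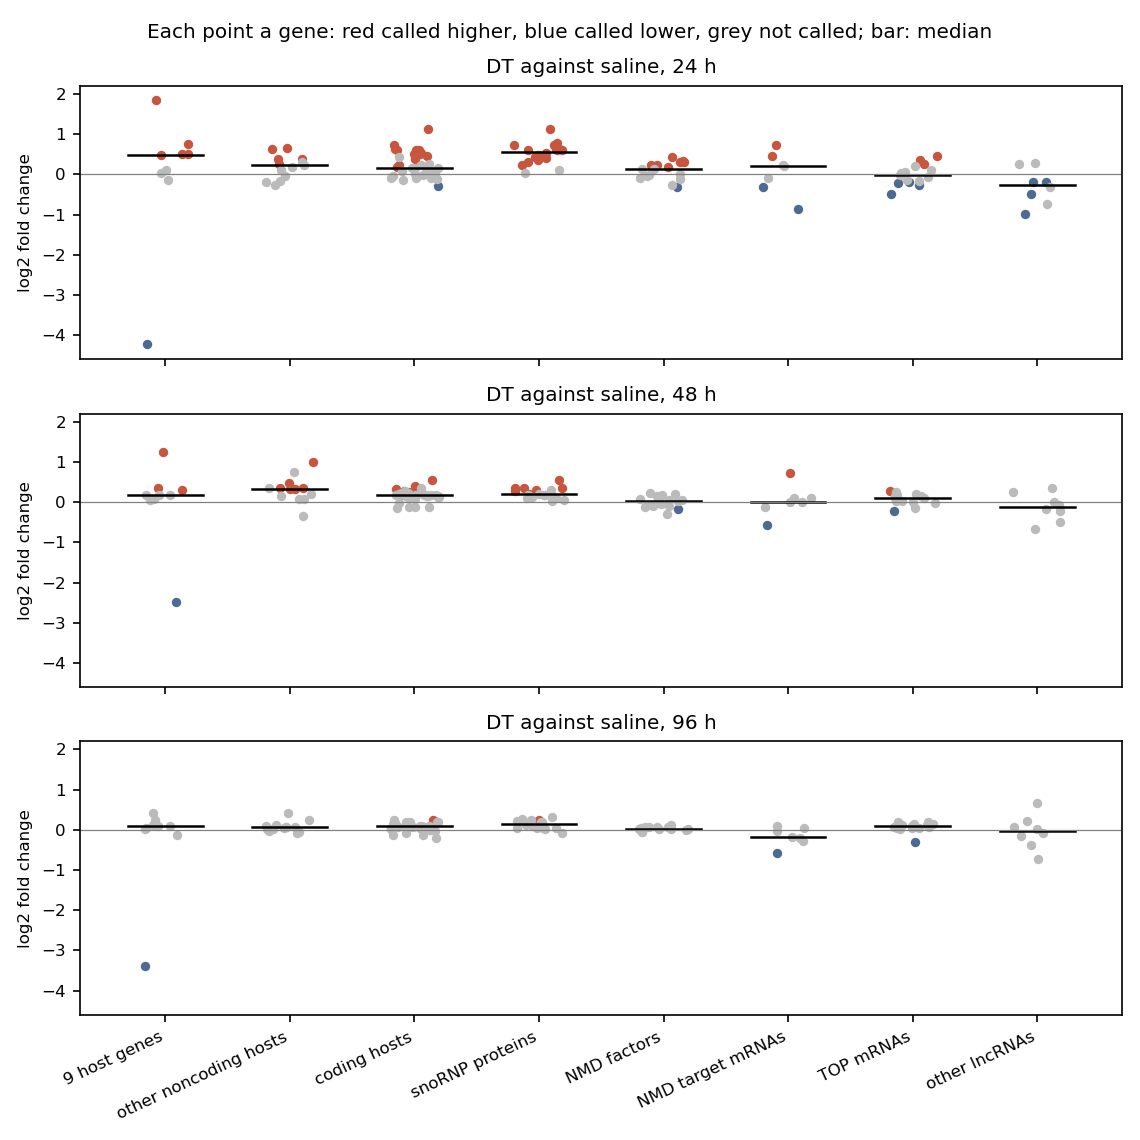
Log2 fold change of DT over saline (y axis) of every tested gene of 8 lists at 24, 48 and 96 h; red points were called higher, blue lower and grey not called, and bars are medians. At 24 h the median was 0.47 for the 9 host genes, 0.57 for snoRNP proteins (16 of 18 higher) and -0.02 for TOP mRNAs.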

How the data were processed

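Expression was measured in 24 libraries of polyA RNA, 4 for each of 6 groups formed from the labels. The authors deposited, per the file headers, whole-number counts of uniquely aligned reads per gene, which were used unchanged, and nRPKM, an RPKM adjusted by a size factor, used only for levels per gene length. GSNAP and GRCm38 are named by the submitters' processing notes, but the sources used here do not give versions, the annotation, or whether strand was used. Symbols and positions were taken from RefSeq (GRCm38.p6), in which 31049 of the 36528 Entrez identifiers (85.0%) were found. Transcripts came from GENCODE M21.

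Counts were tested in R 4.3.3 with edgeR 4.0.16 (quasi-likelihood, robust, TMM, filtering by expression), 1 mean per group over all 24 libraries, 18 residual degrees of freedom, two-sided, Benjamini-Hochberg over 17468 genes, threshold 0.05. SE is the size of the log2 fold change over the square root of F. Replicates differed by at least 3.97 in chi-square per degree of freedom, so none was a copy. The fit was tested on simulated data for DT at 24 h, with 200 of 17295 genes changed. It found 61% of the changes of 1.5-fold and 84% of those of 2-fold, and 4 of its 149 calls were false. The real 24 h contrast called 6765 genes, far more than were changed in the simulation, so these rates need not hold for it. Alternatives were 3 scalings, 2 filters, DESeq2 1.42.0, limma voom 3.58.1, only the libraries compared, a replicate block and each library left out.

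The 9 genes and all lists were chosen with earlier results of these data known. All 9 are named, with up to 4 genes of each other list per time by smallest p; the calls of Zfas1 at 24 h, Epb41l4aos and Rian at 48 h were named after their values were seen. For likeness, the 3 genes of highest r per host, and 5 more for Snhg11, were named among genes of at least 1 CPM with an assigned symbol. Part of the genotype and 1 neighbouring gene are not reported here.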

Additional observations from a re-analysis of the deposited data

Results flagged for a closer look

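Among the 54 groups of 4 libraries examined (9 hosts in 6 groups), a single library stood apart from the other 3 by Dixon's criterion in 2, where chance flags about 1 in 20. Snhg11 in saline at 96 h was 27.2 CPM in replicate 2 and 44.8 to 48.0 CPM in the others. Snhg15 in saline at 48 h was 8.36 CPM in replicate 3 and 6.56 to 6.84 CPM in the others.

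For a pair of the other noncoding hosts the DT effect differed between times by edgeR's interaction test. The log2 fold change of Snhg16 at 96 h minus that at 24 h was -0.63 ± 0.11 (SE, adjusted p = 0.00062), and that of Snhg17 was -0.53 ± 0.11 (adjusted p = 0.00361). Over all genes 7.82% were called lower in this interaction.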

How the results depend on the processing

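Of the 9 hosts' log2 fold changes under the alternatives, 764 values lay within 1 SD of the replicates and 1 did not, Snhg11 at 48 h without replicate 3 of DT, at -3.52. The count of hosts called was 6 at 24 h and 4 at 48 h in every alternative. At 96 h it was 1, 2 with DESeq2, and 1 to 2 over the libraries left out, where Snhg15 joined without replicate 3 of saline. The saline comparisons stayed at 0. For the other noncoding hosts the counts of 5, 6 and 0 became 3 to 6 at 24 h, 3 to 6 at 48 h and 0 at 96 h over the libraries left out, and 1 at 96 h with DESeq2. The cause was not tested. Over all genes 1979 were called at 48 h and 945 with only the libraries compared (1154 to 2741 over the libraries left out), and 704 at 96 h (359 to 680). For 96 h, leaving out the filter on low counts or fitting only the libraries compared gave 0 and 1 in place of 2 calls for coding hosts, and the same for snoRNP proteins. For the TOP mRNAs, fitting only the libraries compared gave 0 in place of 2 calls at 48 h and 2 in place of 1 at 96 h, and no filter gave 1 at 48 h; the Smg6 call at 48 h was lost in both. At 24 h the SE was 0.59 for Snhg11, 0.11 to 0.13 for Snhg3, Snhg4 and Snhg15, which lie under 10 CPM in saline, and 0.07 to 0.09 for the others.

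The replicate numbers do not pair the samples: same-numbered saline and DT libraries correlated at -0.36 to 0.13, and 0 of 12 pairs were each other's best. With the replicate block the 9 hosts gave 6, 4, 1 calls at 24, 48 and 96 h and 0 in saline, and the other hosts 4, 6 and 0. At 96 h the block left 1 of 2 calls for coding hosts and 0 of 2 for snoRNP proteins, and at 48 h 0 of 1 for NMD factors.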

Other observations

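Long noncoding RNAs that host no snoRNAs were read as a further group. The 8 listed were Malat1, Neat1, Tug1, Norad, Miat, Kcnq1ot1, H19 and Xist. At 24 h 0 rose by edgeR, where 19.9% of all genes did, and 4 fell (50% against 18.9%). The median log2 fold change was -0.26 against -0.0036 over all genes. H19, an imprinted transcript, fell from 30.6 to 15.2 CPM, by 0.995 ± 0.28 (edgeR's adjusted p = 0.00827). Neat1, the scaffold of nuclear paraspeckles, fell from 330 to 237 CPM, by 0.48 ± 0.16 (adjusted p = 0.0227). Tug1 fell by 0.19 ± 0.06 (edgeR's adjusted p = 0.0181) and Norad, which binds Pumilio proteins, by 0.19 ± 0.06 (adjusted p = 0.0223). The 4 calls became 1 without replicate 2 or replicate 3 of DT or with only the libraries compared, and 2 without the filter on low counts. At 48 and 96 h edgeR, DESeq2 and limma voom called 0 of the 8, and 1 and 2 had an unadjusted p under 0.05 in edgeR.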
